A study of Mus musculus with 6 samples.

Results

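The 9 genes described here are Calcr, Chodl, Cdh15, Itga7, Megf10, Tenm4, Cxcr4, Vcam1 and Hs6st2, a set of surface and niche genes linked to the resting state of satellite cells, the stem cells of skeletal muscle. They were chosen by symbol, out of 19321 genes named on the array, and each was read from its brightest probe, taken by the mean over 6 arrays. The 9 genes had 11 probes, since Cxcr4 and Megf10 had 2 each. All 9 passed the filter of a signal above background on at least 2 arrays, as did 18372 genes in all. Cdh15 was above background on 5 arrays and the others on all 6.

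The arrays compared 3 populations of cells that were sorted by flow cytometry out of C57BL/6 mouse hind limbs at 2 ages, with 1 array for each population and age. Aged mice were 24 to 28 months old and young mice 8 to 10 weeks old. The populations were satellite cells, PDGFRa+ mesenchymal progenitors, which give rise to fat and fibrous tissue in muscle, and a mixture of CD31+ or CD45+ cells, which are endothelial and hematopoietic. Freshly sorted cells of repeated sorts were pooled up to a set cell number, so each array stood for a pool and not for an animal. How the satellite cells were gated is not given in the sources used here, so a gene in the set whose product served as a sort marker cannot be told apart from the rest.

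Satellite cells lie between the membrane of a muscle fibre and the basement membrane around it. In resting muscle they stay out of the cell cycle, and proteins on their surface hold them to the fibre, bind the surrounding matrix and receive signals that keep them at rest. After injury they leave this state, proliferate and either fuse into fibres or return to the niche. Several of these surface proteins are used to recognise or sort satellite cells in mouse muscle.

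Each population carried its own markers, but the lists were chosen with earlier results of these data known, so this is no independent check of the sorts. The 8 satellite cell markers summed to a deposited intensity of 11318.8 on the aged and 10656.7 on the young satellite cell array, against 95.7 to 226.5 on the other 4 arrays. Mesenchymal markers summed to 81374.7 and 98536.4 on the aged and young PDGFRa+ arrays, against 826.5 to 9775.2 elsewhere. On the aged and young CD31+ or CD45+ arrays endothelial markers summed to 33690.3 and 43378.6, against 511.9 to 984.5 elsewhere, and hematopoietic markers to 7877.5 and 7140.4, against 132.7 to 192.4. Pericyte and smooth muscle markers on the aged and young satellite cell arrays reached 57.9% and 34.3% of their highest array. Pax7, the transcription factor that defines satellite cells, was below background on both PDGFRa+ arrays. Between 88.4% and 92.3% of probes were above background on each array. The number of arrays limits the precision of every value below.

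All 9 genes were higher in satellite cells than in PDGFRa+ cells, and 8 of the 9 were also higher than in CD31+ or CD45+ cells. Cxcr4 was the exception, with a like intensity in satellite cells and in CD31+ or CD45+ cells. Genes were called where limma gave an adjusted p below 0.05 and a change of at least 2-fold in a fit with terms for cell type and age. That fit called 3.20% of all tested genes higher in satellite than in PDGFRa+ cells, and 5.12% higher in satellite than in CD31+ or CD45+ cells. The median log2 difference of the 9 genes was 3.96 over PDGFRa+ cells, where the median of all tested genes was 0.01. Over CD31+ or CD45+ cells the median of the 9 was 4.07, and that of all tested genes 0.02. The 8 genes higher than in both other populations stood beside a background of 2.13% of tested genes. The median log2 differences come from intensities with an offset of 50, which shrinks the difference of a gene that is dim on one side.

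**Figure D1:**
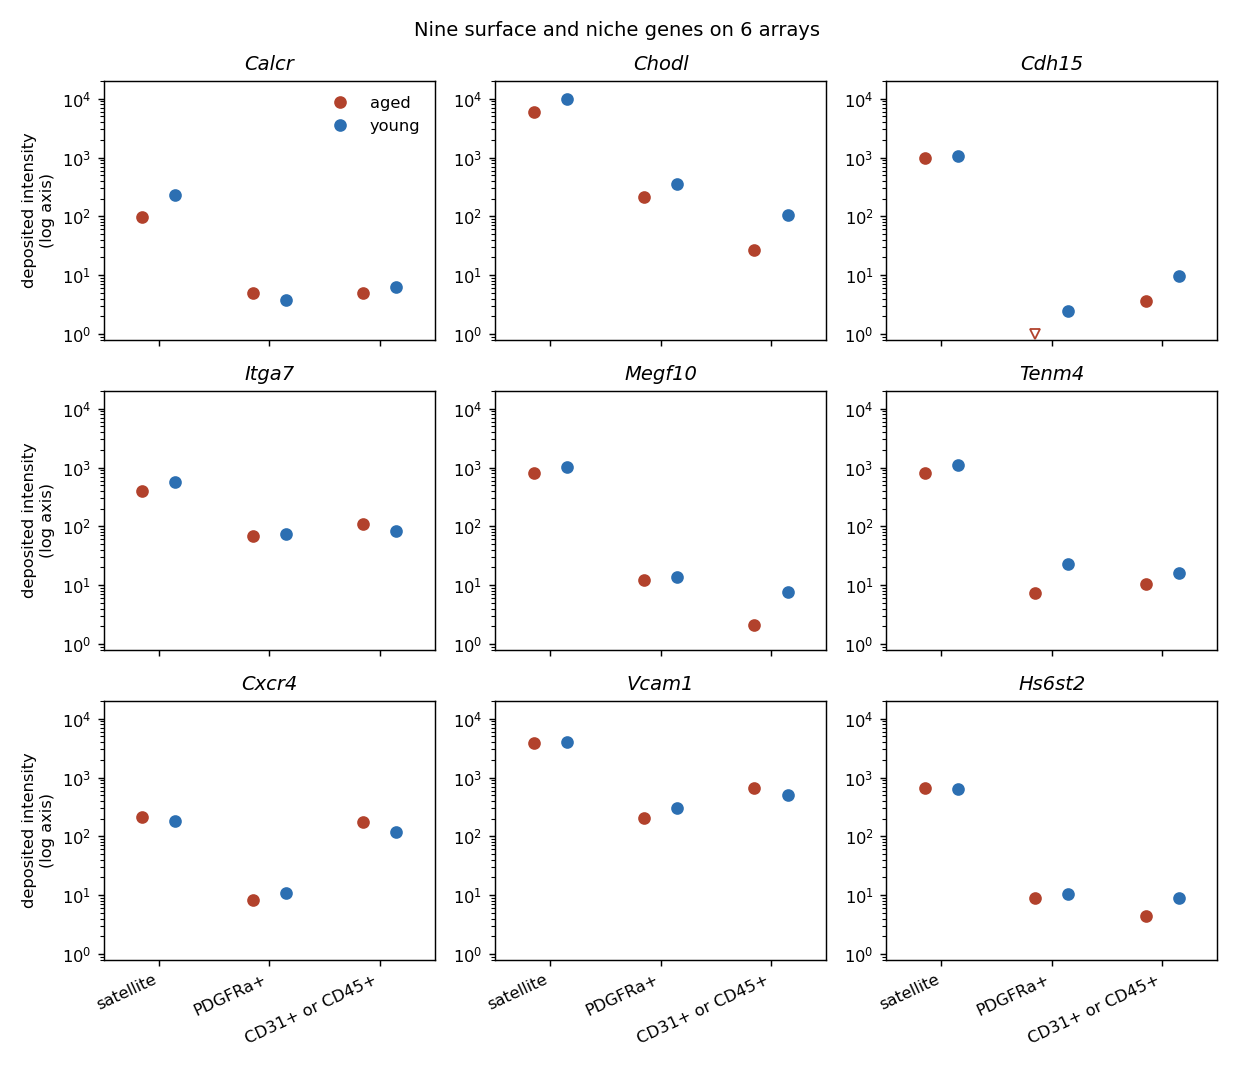
Deposited intensity (vertical log axis) of each of the 9 genes on the 6 arrays, for satellite, PDGFRa+ and CD31+ or CD45+ cells, with aged arrays as red points left of young arrays in blue; an open triangle marks a signal below background, drawn at the floor of the axis. The satellite cell points lie highest in every panel, and in the Cxcr4 panel they lie close to those of the CD31+ or CD45+ cells.

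Cdh15 encodes M-cadherin, the adhesion protein that sits where a satellite cell touches its fibre. Its probe (M400001419) read 974.4 on the aged and 1076.8 on the young satellite cell array. It was below background on the aged PDGFRa+ array, where the table is empty, and read 2.5 on the young one. On the CD31+ or CD45+ arrays it read 3.7 in aged and 9.5 in young cells. The satellite cell values therefore lay far above the other 4, and no other gene of the set was below background on any array. Cdh15 was 4.92 log2 units higher in satellite than in PDGFRa+ cells (95% interval 4.75 to 5.09, limma adjusted p = 0.00392) and 4.74 units higher than in CD31+ or CD45+ cells (adjusted p = 7.20e-04).

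Itga7 encodes the integrin alpha7 chain, which pairs with the beta1 chain to bind laminin of the basement membrane. Its probe (M300004591) read 401.8 on the aged and 562.4 on the young satellite cell array, against 68.9 and 73.3 on the aged and young PDGFRa+ arrays and 109.4 and 84.5 on the aged and young CD31+ or CD45+ arrays. The satellite cell arrays were the highest, but Itga7 had the largest signal outside satellite cells after Cxcr4, relative to its own satellite cell level. On the aged CD31+ or CD45+ array it stood at 27.2% of the aged satellite cell value, and at 17.1% on the aged PDGFRa+ array. The log2 difference was 2.29 over PDGFRa+ cells (SE 0.18, limma adjusted p = 0.0103) and 2.01 over CD31+ or CD45+ cells (adjusted p = 0.00719).

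Vcam1 encodes an adhesion molecule of the immunoglobulin family that binds the integrin alpha4beta1, and it also marks activated endothelium. Its probe (M200000376) read 3828 on the aged and 3996.8 on the young satellite cell array, against 205.7 and 300.1 on the aged and young PDGFRa+ arrays and 651.6 and 505.5 on the aged and young CD31+ or CD45+ arrays. The satellite cell arrays differed from each other by far less than from the other 4, and the CD31+ or CD45+ arrays came next in order. The log2 difference was 3.62 over PDGFRa+ cells (SE 0.22, limma adjusted p = 0.00734) and 2.47 over CD31+ or CD45+ cells (adjusted p = 0.00653). Against CD31+ or CD45+ cells, PDGFRa+ cells were lower by log2 -1.15 (adjusted p = 0.0349). That call was lost with the scanner setting as a block (log2 -1.18, adjusted p = 0.317), with the local background of each spot (-1.05, 0.190) and when any array but the young CD31+ or CD45+ one was left out (adjusted p = 0.0660 to 0.117).

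Calcr encodes the calcitonin receptor, a receptor that mouse satellite cells use to stay at rest. Its probe (M400009396) read 98.3 on the aged and 232.9 on the young satellite cell array, against 4.9 and 3.8 on the aged and young PDGFRa+ arrays and 5 and 6.4 on the aged and young CD31+ or CD45+ arrays. The satellite cell arrays stood apart from the others, and also from each other by more than for any other gene of the set. Over the 2 satellite cell arrays the log2 difference was 2.28 against PDGFRa+ cells, with the widest interval of the set (1.37 to 3.19, limma adjusted p = 0.0220). Against CD31+ or CD45+ cells it was 2.24 (adjusted p = 0.0157). Leaving out either CD31+ or CD45+ array lifted the adjusted p to 0.0614 in the first comparison and to between 0.0734 and 0.0987 in the second, so Calcr was then no longer called. With the local background of each spot it was 0.71 against PDGFRa+ and 0.70 against CD31+ or CD45+ cells, below 2-fold and not called (adjusted p = 0.287 and 0.244), and with the authors' value table it was 4.84 and 4.52.

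Cxcr4 encodes the receptor for the chemokine CXCL12, which guides muscle progenitors and is also carried by blood cells and some endothelial cells. Its brightest probe (M400014726) read 211 on the aged and 182.3 on the young satellite cell array, against 8.4 and 10.7 on the aged and young PDGFRa+ arrays. The CD31+ or CD45+ arrays read 174.1 in aged and 118.8 in young cells, 82.5% and 65.2% of the satellite cell values of the same ages. Satellite and CD31+ or CD45+ cells were the high populations and PDGFRa+ cells the low one. The log2 difference of satellite over PDGFRa+ cells was 2.41 (SE 0.14, limma adjusted p = 0.00722), whereas over CD31+ or CD45+ cells it was 0.41 (95% interval -0.002 to 0.82, adjusted p = 0.112). PDGFRa+ cells were lower than CD31+ or CD45+ cells by log2 -2.01 (adjusted p = 0.00504), a call that was lost with the scanner setting as a block (-1.96, 0.105) and with the local background of each spot (-1.26, 0.161).

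Chodl encodes chondrolectin, a membrane protein of the C-type lectin family. Its probe (M200015463) read 5870.6 on the aged and 10010.3 on the young satellite cell array, against 212.3 and 350.5 on the aged and young PDGFRa+ arrays and 26.8 and 106.7 on the aged and young CD31+ or CD45+ arrays. All 6 arrays fell into the order satellite, PDGFRa+, CD31+ or CD45+, with no overlap between populations. Chodl was 6.01 log2 units higher than in CD31+ or CD45+ cells (SE 0.24, limma adjusted p = 0.00180), the largest such difference of the 9 on this scale. In the authors' value table, without an offset of that size, it was 7.13, below Megf10 (7.47) and Cdh15 (7.19). Chodl was 4.30 higher than in PDGFRa+ cells (adjusted p = 0.00699). It was also the single gene of the set called higher in PDGFRa+ than in CD31+ or CD45+ cells, by log2 1.71 (adjusted p = 0.0183), where 4.70% of tested genes were called higher and 5.40% lower.

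Beside this PDGFRa+ signal, satellite cell markers lay both above and below Chodl as shares of their own satellite cell values. Chodl stood at 3.62% of its satellite cell value in aged and 3.50% in young PDGFRa+ cells. Myf5, a myogenic transcription factor, stood at 0.153% in aged and 0.151% in young PDGFRa+ cells, and Vgll2, a muscle transcription cofactor, at 0.109% and 0.154%. Fgfr4 and Asb5 also stood below 1% there, and Des at 2.77% and 1.74%. Myod1, at 4.94% and 5.26%, and Heyl, at 5.78% and 5.03%, stood above Chodl, while Pax7 was below background. On the aged and young PDGFRa+ arrays Myod1 read 21.4 and 25.1 and Heyl 33.6 and 34.5, not far from the column median of 25. On the aged and young CD31+ or CD45+ arrays Myod1 read 19.8 and 21.2 and Heyl 32.7 and 39.4. Chodl read 212.3 and 350.5 on the aged and young PDGFRa+ arrays. The part of admixed satellite cells in the Chodl signal was not tested. The call of Chodl in PDGFRa+ over CD31+ or CD45+ cells was lost without either PDGFRa+ array, without the age term (adjusted p = 0.0620), with the scanner setting as a block (log2 2.15, 0.136) and with the local background of each spot (1.12, 0.352).

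Tenm4 encodes a teneurin, a large transmembrane protein of cell contacts that has been tied to satellite cell quiescence in mice. Its probe (M200002965) read 805.7 on the aged and 1125.2 on the young satellite cell array, against 7.4 and 22.7 on the aged and young PDGFRa+ arrays and 10.3 and 16.4 on the aged and young CD31+ or CD45+ arrays. The other 4 arrays overlapped with each other and none came near the satellite cell values. The log2 difference was 4.38 over PDGFRa+ cells (SE 0.07, limma adjusted p = 0.00392) and 4.42 over CD31+ or CD45+ cells (adjusted p = 8.29e-04).

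Megf10 encodes a transmembrane protein with many EGF-like repeats that regulates satellite cell proliferation. Its brightest probe (M400013376) read 814.2 on the aged and 1016 on the young satellite cell array, against 12.3 and 13.8 on the aged and young PDGFRa+ arrays and 2.1 and 7.5 on the aged and young CD31+ or CD45+ arrays. Megf10 was high in satellite cells alone, with the PDGFRa+ arrays above the CD31+ or CD45+ arrays by an amount that did not pass the test (log2 0.29, limma adjusted p = 0.0696). The log2 difference was 4.36 over PDGFRa+ cells (SE 0.07, adjusted p = 0.00392) and 4.64 over CD31+ or CD45+ cells (adjusted p = 8.29e-04).

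Hs6st2 encodes a heparan sulfate 6-O-sulfotransferase, an enzyme of the Golgi and not of the surface, which places sulfate on the heparan sulfate chains that present growth factors. Its probe (M400007719) read 652.3 on the aged and 627.5 on the young satellite cell array, against 9 and 10.4 on the aged and young PDGFRa+ arrays and 4.5 and 9 on the aged and young CD31+ or CD45+ arrays. The satellite cell arrays were close to each other and the other 4 were all dim. The log2 difference was 3.96 over PDGFRa+ cells (SE 0.09, limma adjusted p = 0.00392) and 4.07 over CD31+ or CD45+ cells (adjusted p = 9.61e-04).

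**Figure D2:**
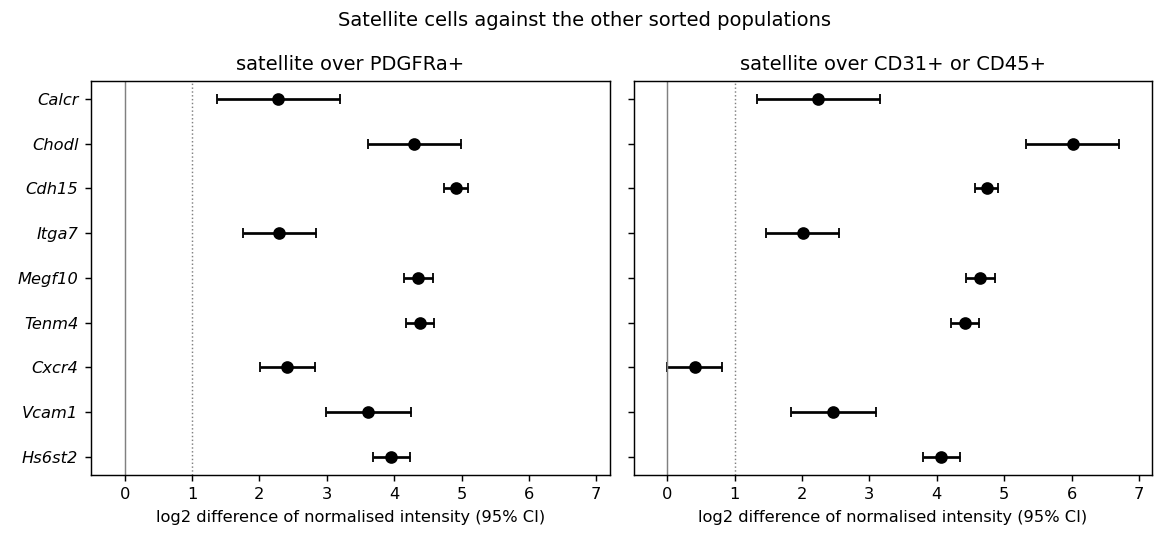
Log2 difference of normalised intensity (horizontal axis) with its 95% confidence interval for each of the 9 genes, satellite over PDGFRa+ cells on the left and satellite over CD31+ or CD45+ cells on the right; the solid line marks 0 and the dotted line the 2-fold threshold. All 9 intervals lie above the threshold on the left, and on the right the interval of Cxcr4 includes 0 while the other 8 lie above the threshold.

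The arrays of the 3 populations did not all have the same gain slope in their file headers. The slope was 0.465 or 0.466 on the young satellite, young PDGFRa+ and aged PDGFRa+ arrays, and 0.477 or 0.478 on the other 3. The arrays were split here into 2 groups by these slopes, in that order, and this split is the scanner setting used as a block. No label calls the groups a batch. Within the first group, young satellite exceeded young PDGFRa+ cells by log2 2.26 (Cxcr4) to 4.93 (Cdh15) for the 9 genes. Within the second, aged satellite exceeded aged CD31+ or CD45+ cells by 0.31 for Cxcr4 and by 1.67 (Itga7) to 6.41 (Chodl) for the other 8. Both PDGFRa+ arrays lay in the first group and both CD31+ or CD45+ arrays in the second, so slope group and population differed together in that comparison. The fit with a block separates them only through the satellite cell arrays, which differ in age. The satellite over PDGFRa+ calls also rested on both PDGFRa+ arrays. Without either of them all 9 genes were still higher in satellite cells, with log2 differences of 1.99 to 4.96 and an unadjusted p below 0.05 for each, but no gene of the array passed the adjusted threshold. With the local background of each spot in place of the blank spots, the 9 genes were again higher than in PDGFRa+ cells, by log2 0.71 to 3.37, and Tenm4 alone was called in either satellite cell comparison. With the authors' value table these differences were 2.73 to 9.10.

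The upstream sequences below are those of Cdh15, the gene closest to background outside satellite cells, of Chodl, a gene called in every comparison of the 3 populations, and of Calcr, for its lower value in aged satellite cells. Each is the window of 250 bases before a transcription start in RefSeq (GRCm38.p6), 5′ to 3′ on the strand of the gene, with capitals marking each CANNTG E-box, the class of motif that myogenic bHLH factors bind. The Cdh15 window is chr8:122848124-122848373 on the plus strand, the Chodl window chr16:78930698-78930947 on the plus strand and the Calcr window, 1 of 2 starts, chr6:3764714-3764963 on the minus strand.
Cdh15: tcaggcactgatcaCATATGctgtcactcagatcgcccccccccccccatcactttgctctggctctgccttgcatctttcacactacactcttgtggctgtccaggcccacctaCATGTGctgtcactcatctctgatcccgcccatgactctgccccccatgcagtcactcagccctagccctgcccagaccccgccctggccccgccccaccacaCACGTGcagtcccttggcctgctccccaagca
Chodl: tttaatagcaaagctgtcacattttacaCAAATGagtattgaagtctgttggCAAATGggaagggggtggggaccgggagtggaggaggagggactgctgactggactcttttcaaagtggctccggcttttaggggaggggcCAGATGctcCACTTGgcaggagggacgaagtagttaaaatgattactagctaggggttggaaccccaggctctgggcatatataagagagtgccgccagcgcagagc
Calcr: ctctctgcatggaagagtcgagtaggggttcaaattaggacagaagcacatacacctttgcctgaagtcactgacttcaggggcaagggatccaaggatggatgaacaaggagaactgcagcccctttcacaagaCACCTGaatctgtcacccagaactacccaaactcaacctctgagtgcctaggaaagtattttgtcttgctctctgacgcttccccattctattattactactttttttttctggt
The Cdh15 window held 3 E-boxes, at 236, 135 and 32 bases before the start, the Chodl window 4 and the Calcr window 1. The window of the other Calcr start held 0. Windows were listed for 6 of the 9 genes, 9 windows in all, and an E-box stood in 5 of the 9 windows, against 66.2% of the 32851 windows of all genes. The MyoD-type E-box CAGCTG, which is itself a CANNTG, was in 0 of the 9 and in 13.0% of all windows. The RBPJ core TGGGAA was in 1 of the 9, at 194 bases before the Chodl start where it shares bases with an E-box, and in 21.6% of all windows. The homeobox core TAATTA was in 0 of the 9 and in 4.8% of all windows. Both strands were searched, and a match describes letters in the window and no more.

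Aged and young arrays were compared within each population by their values alone, since each pair had 1 array a side. In satellite cells 6 of the 9 genes were lower in aged cells on the normalised log2 scale, where 55.9% of 18024 genes were lower. None of the 9 differed by 2-fold there, while 0.0999% of those genes were at least 2-fold lower and 1.13% at least 2-fold higher. The median log2 difference of the 9 was -0.21, where that of all genes was -0.02. In PDGFRa+ cells 6 of the 9 were lower as well, where 50.7% of genes were, and none differed by 2-fold, where 0.162% of genes were that much lower and 0.263% higher. In CD31+ or CD45+ cells 6 of the 9 were lower, where 56.3% of genes were, and none was 2-fold higher, where 0.514% of genes were. A common age term, fitted over all 6 arrays, called none of the 9 and 0% of all tested genes, and gave an unadjusted p below 0.05 for 2026 genes.

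Calcr was lower in aged satellite cells, by more than any other gene of the set on the normalised scale. Its aged value was 42.2% of the young one on the deposited scale, and the log2 difference was -0.98, with 21 of 18024 genes lower. In the other populations, where Calcr was near background, it was 0.07 in PDGFRa+ and -0.06 in CD31+ or CD45+ cells. Over 8 alternative settings the satellite cell difference of Calcr ranged between -1.24 and -0.64, passing 2-fold with an offset of 10 (-1.15), without background correction (-1.11) and in the authors' value table (-1.24). With the local background of each spot Calcr was at -0.64, and Chodl (-1.88), Cdh15 (-1.23), Megf10 (1.32) and Hs6st2 (0.70) differed by more.

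Chodl was lower in aged cells of all 3 populations, by log2 -0.42 in satellite, -0.50 in PDGFRa+ and -1.21 in CD31+ or CD45+ cells. On the normalised scale with its offset of 50, the last of these was the single difference of at least 2-fold among the 9 genes, in a population where 0.0663% of genes were that much lower, and 6 of 18090 genes were lower than Chodl. On the deposited scale, aged values were at most 50% of young ones for Calcr in satellite cells, for Tenm4 in PDGFRa+ cells (32.6%), and for Chodl, Megf10, Cdh15 and Hs6st2 in CD31+ or CD45+ cells, in which the last 3 were near background. Its common age term was -0.71 (SE 0.19, limma unadjusted p = 0.0263, adjusted p = 0.397). Tenm4 was also lower in all 3 populations, by -0.38, -0.41 and -0.20, with a common age term of -0.33 (SE 0.06, unadjusted p = 0.00687, adjusted p = 0.328). With the local background Tenm4 was instead higher in aged cells of all 3 populations, by 0.31, 0.06 and 0.04, and its age term was 0.14. Neither gene passed the adjusted threshold with quantile normalisation. With each array scaled to its 75th percentile, Chodl was called (log2 -0.81) among 443 genes in all.

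The remaining genes gave smaller or mixed age differences. Itga7 in satellite cells stood at 71.4% of its young value and Megf10 at 80.1%, while Cdh15 stood at 90.5%, Vcam1 at 95.8% and Hs6st2 at 104%. Vcam1 was thus slightly lower in aged cells on the deposited scale, where 7 of the 9 genes were lower, and slightly higher on the normalised scale, at log2 0.02. Cxcr4 was higher in aged cells by log2 0.27 in satellite and 0.47 in CD31+ or CD45+ cells on its brightest probe. Itga7 and Megf10, like Tenm4, turned to higher in aged satellite cells when the local background of each spot was used, at 0.48 and 1.32.

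**Figure D3:**
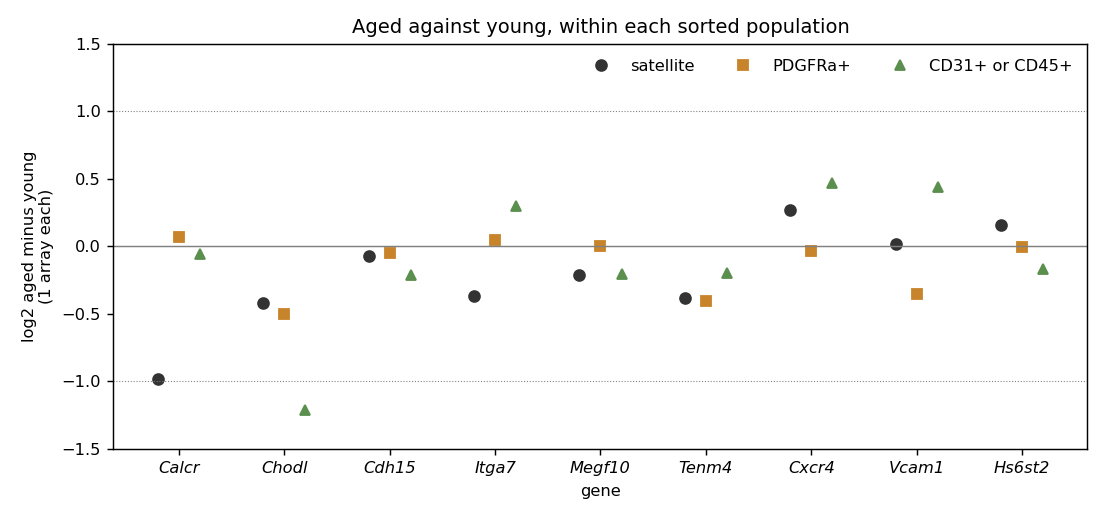
Log2 difference of aged minus young normalised intensity (vertical axis) for each of the 9 genes, from 1 array a side, in satellite cells (circles), PDGFRa+ cells (squares) and CD31+ or CD45+ cells (triangles), with dotted lines at a 2-fold change. Calcr in satellite cells lies at -0.98, close to the lower dotted line, and Chodl in CD31+ or CD45+ cells lies below it at -1.21.

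Markers of some other cells also differed between the aged and young satellite cell arrays. Of all 18024 genes in this pair, 55.9% were lower in aged cells and 1.13% at least 2-fold higher. All 9 mesenchymal markers were higher on the aged array, 6 of them by at least 2-fold, and their sum was 9775.2 in aged and 5106.9 in young satellite cells, against 81374.7 and 98536.4 in aged and young PDGFRa+ cells. All 6 myofibre markers were higher on the aged array as well, with sums of 3996.3 in aged and 2203 in young satellite cells. Of the 7 pericyte and smooth muscle markers 6 were higher, 4 of them by at least 2-fold, with sums of 6669.4 in aged and 3955.2 in young satellite cells. These markers summed to 11518.5 and 9434.5 in aged and young CD31+ or CD45+ cells and to 1388.6 and 1135.6 in aged and young PDGFRa+ cells. Satellite cell markers summed to like values, with 4 of 8 higher on the aged array, but single markers shifted in opposite directions. Asb5 was higher by log2 1.03, at 2992 in aged and 1387.1 in young satellite cells, the 1 difference of at least 2-fold in that list. Myf5 was lower, at 1637.7 and 2650.9, as was Fgfr4, at 1592.7 and 2046.4. Endothelial markers summed to 984.5 in aged and 906.8 in young satellite cells, with 7 of 10 higher. Hematopoietic markers summed to 160.4 and 132.7, with 8 of 11 higher, and glial markers to 293 and 224.9, with 2 of 3 higher. None of these last 3 lists held a 2-fold difference. The part of cells other than satellite cells in the lower Calcr, Chodl and Tenm4 values was not tested. The aged and young satellite cell arrays also fell into different gain slope groups, so slope group and age cannot be told apart in that pair. In pools of cells, fewer expressing cells and less RNA per cell cannot be told apart either.

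The second probes of Cxcr4 and Megf10 showed the same populations as high but not always the same age direction. The second Cxcr4 probe (M400003021) read 143.7 on the aged and 210.9 on the young satellite cell array, against 19 and 20.5 on the aged and young PDGFRa+ arrays and 115.5 and 132.1 on the aged and young CD31+ or CD45+ arrays. It was lower in aged satellite and aged CD31+ or CD45+ cells, whereas the brightest probe was higher in both. The choice between them rested on means of 107 for the second and 118 for the brightest over the 6 arrays, and the age direction of Cxcr4 depended on the probe. The second Megf10 probe (M400000761) read 60.3 in aged and 74.1 in young satellite cells and 1.5 to 1.8 on the other 4 arrays, and was likewise lower in aged than in young satellite cells.

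**Figure D4:**
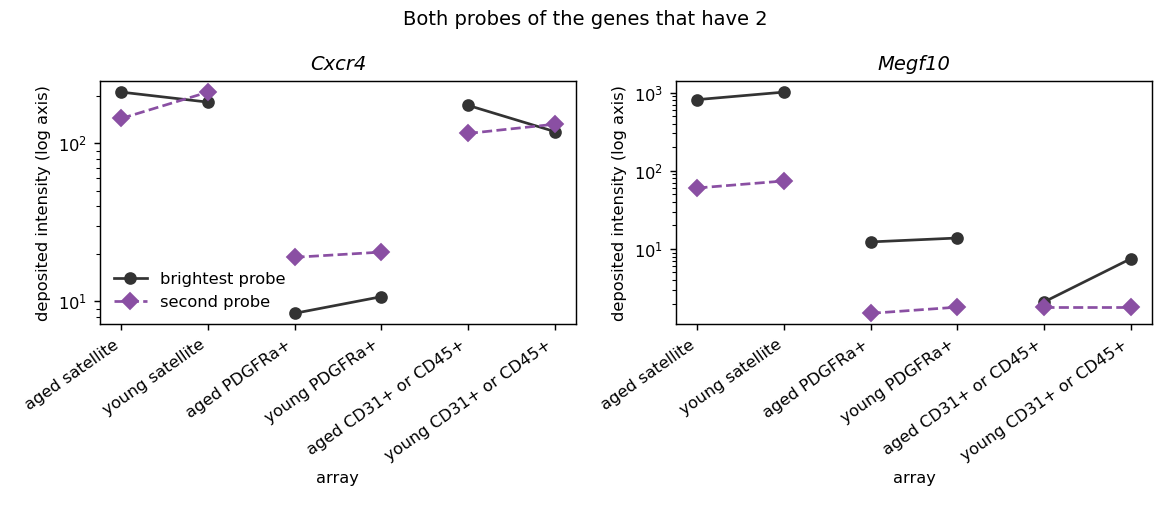
Deposited intensity (vertical log axis) of both probes of Cxcr4 and of Megf10 on the 6 arrays, with each aged array left of its young array and the 2 joined by a line; circles show the brightest probe and diamonds the second probe. For Cxcr4 the lines of the probes slope in opposite directions in satellite cells, and for Megf10 both probes are highest in satellite cells.

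Ligands, co-receptors and matrix partners of the 9 genes followed no single pattern. Of 30 tested partners, 2 rose and 8 fell in satellite against PDGFRa+ cells, with a median log2 difference of -0.19, where 3.20% of all tested genes rose and 4.09% fell. Against CD31+ or CD45+ cells 6 rose and 9 fell, with a median of -0.02, where 5.12% rose and 6.57% fell. None of the partners was called by the age term.

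The CXCR4 ligand gene Cxcl12 read 342.8 on the aged and 142.7 on the young satellite cell array, against 85.8 and 78.3 on the aged and young PDGFRa+ arrays and 6811.1 and 5973.7 on the aged and young CD31+ or CD45+ arrays. It was thus brightest in the population that also carried Cxcr4, and fell in satellite against CD31+ or CD45+ cells by log2 -4.94 (limma adjusted p = 0.00328). Ackr3, which encodes the other CXCL12 receptor, was above background in all 3 populations and was called in neither satellite comparison, at -0.86 against PDGFRa+ and 0.72 against CD31+ or CD45+ cells.

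Collagen V has been described as a ligand of the calcitonin receptor on mouse satellite cells. Col5a1 read 1092.2 on the aged and 910.8 on the young satellite cell array, against 3041.7 and 4553.6 on the aged and young PDGFRa+ arrays and 33.1 and 43 on the aged and young CD31+ or CD45+ arrays. Satellite cells thus stood between the other populations for Col5a1. It fell against PDGFRa+ cells (log2 -1.85, limma adjusted p = 0.0211) and rose against CD31+ or CD45+ cells (3.87, adjusted p = 0.00383). Col5a2 did likewise, at -2.04 and 2.48, and Col5a3 rose against CD31+ or CD45+ cells by 3.46 but was not called against PDGFRa+ cells at -1.18.

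The co-receptors that alter ligand choice by calcitonin-type receptors, Ramp1, Ramp2 and Ramp3, were not high in satellite cells. Ramp1 fell against both populations, by log2 -2.88 against PDGFRa+ (limma adjusted p = 0.0196) and -1.73 against CD31+ or CD45+ cells, and read 64.8 on the aged and 6.2 on the young satellite cell array. Ramp2 and Ramp3 fell against CD31+ or CD45+ cells by -2.75 and -1.99, and were not called against PDGFRa+ cells. Adm, which encodes the peptide adrenomedullin, fell against PDGFRa+ cells by -3.16.

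Among the integrin and laminin genes whose products pair with those of Itga7 and Vcam1, Lama2 was the single one that rose. Itgb1, the beta1 partner of both, read 583.3 on the aged and 448 on the young satellite cell array and was called in neither comparison, at log2 -0.30 against PDGFRa+ and -0.95 against CD31+ or CD45+ cells. Itga4, the alpha4 partner of VCAM1, was near background on every array, between 1 and 4.1. Itga9 fell against PDGFRa+ cells (-1.06) and Itgb7 against CD31+ or CD45+ cells (-1.53). Lama2, the chain of muscle laminin, rose against CD31+ or CD45+ cells (1.26, limma adjusted p = 0.00537) and was not called against PDGFRa+ cells. Lama4 and Lamb2 fell against both, at -2.48 and -1.72 against PDGFRa+ and -1.90 and -1.03 against CD31+ or CD45+ cells. Lamc1 fell against PDGFRa+ (-1.40) and Lama5 against CD31+ or CD45+ cells (-1.32).

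Signalling partners of Megf10, Tenm4 and the heparan sulfate chains were split. Notch1, the receptor through which Megf10 has been linked to Notch, rose against PDGFRa+ cells (log2 2.29, limma adjusted p = 0.0157) and was not called against CD31+ or CD45+ cells (-0.66). Adgrl2, a latrophilin of the family that binds teneurins, fell against CD31+ or CD45+ cells (-2.21). The FGF receptor gene Fgfr1 rose against CD31+ or CD45+ cells (3.35, adjusted p = 8.43e-04), and Fgfr4 rose against both (5.64 against PDGFRa+ and 5.31 against CD31+ or CD45+ cells).

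**Figure D5:**
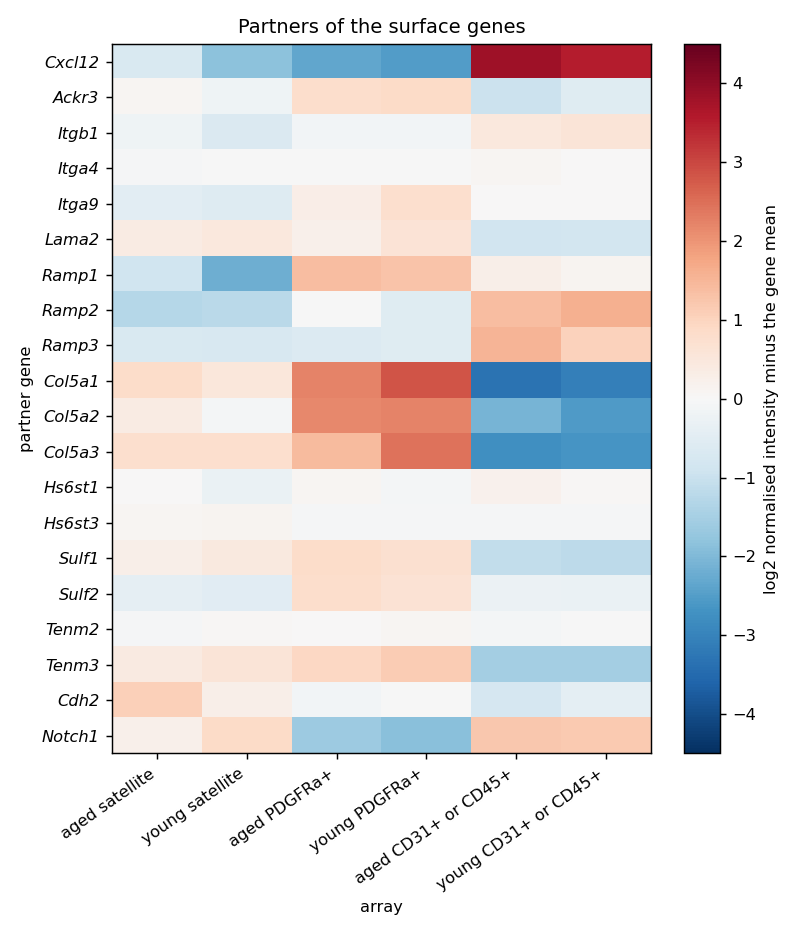
Log2 normalised intensity minus the mean of the gene over the 6 arrays (colour) for 20 partner and family genes of the set, with satellite cells in the left pair of columns and aged left of young in each pair. Cxcl12 is highest in both CD31+ or CD45+ arrays, and Col5a1, Col5a2 and Col5a3 are highest in the PDGFRa+ arrays.

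Most relatives of the 9 genes were not called. Of 34 tested family members, 3 rose and 4 fell in satellite cells against each of the other populations, where 3.20% of all tested genes rose and 4.09% fell against PDGFRa+ cells and 5.12% rose and 6.57% fell against CD31+ or CD45+ cells. Ncam1 (log2 1.86 over PDGFRa+ and 2.33 over CD31+ or CD45+ cells) and Cdh4 (1.10 and 1.15) rose against both. Cdh13 rose against PDGFRa+ cells by 2.48, and the endothelial genes Cdh5 and Icam2 fell against CD31+ or CD45+ cells by -1.60 and -4.56. Among the teneurins Tenm1 was below background on every array, Tenm2 was called in neither comparison, and Tenm3 rose against CD31+ or CD45+ cells (2.02) and was not called against PDGFRa+ cells (-0.56). Cdh2, the N-cadherin gene, was called in neither, at 0.75 and 1.28.

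The other 6-O-sulfotransferase genes were not called in either satellite cell comparison. Hs6st1 read 89.9 on the aged and 68.4 on the young satellite cell array, between 86.3 and 108.5 on the other 4, with log2 differences of -0.13 and -0.25. Hs6st3 read 3.8 and 5.1 in aged and young satellite cells and was below background on the other 4 arrays. Of 21 tested genes of heparan sulfate synthesis and editing, 0 rose and 2 fell against PDGFRa+ cells (3.20% and 4.09% of all tested genes), and 2 rose and 1 fell against CD31+ or CD45+ cells (5.12% and 6.57%). Those were Hs3st1 and the sulfatase gene Sulf2 against PDGFRa+ cells (-1.27 and -1.18), and Hs2st1 (1.44), the sulfatase gene Sulf1 (1.49) and Hs3st1 (-2.37) against CD31+ or CD45+ cells. Of the 9 tested cadherin and catenin genes, Cdh4 alone rose against either population. Ctnna1 (-1.64), Ctnnb1 (-1.48) and Cdh5 fell against CD31+ or CD45+ cells, and none fell against PDGFRa+ cells.

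Among other genes tied to quiescence, more were called higher than lower in satellite cells. Of 29 tested, 12 rose and 1 fell against PDGFRa+ cells (median log2 difference 0.78), where 3.20% of all tested genes rose and 4.09% fell. Against CD31+ or CD45+ cells 12 rose and 3 fell (median 0.92), where 5.12% rose and 6.57% fell. Spry1, an FGF pathway inhibitor, rose by 1.61 and 1.96, Heyl, a Notch target, by 3.30 and 3.29, and Sdc4, a heparan sulfate proteoglycan of the surface, by 2.89 and 4.01. Pax7, Fgfr4 and Heyl, which rose against both, are also among the satellite cell markers used above. The gene that fell against PDGFRa+ cells was Cd34 (-1.66), which mesenchymal progenitors also carry. Those that fell against CD31+ or CD45+ cells were Rb1 (-3.41), Tek (-2.43) and Cdkn1c (-1.42). In the satellite cell age pair 20 of the 29 were lower in aged cells, with a median of -0.15, where 55.9% of all genes were lower with a median of -0.02. Gas1 (-0.96) and Foxo3 (-0.95) were among the lower ones. Rb1 was higher by 1.47, the single difference of at least 2-fold in the list on this scale, and Gas6 by 0.83.

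Some genes on a list of activation and commitment were also higher in the freshly sorted satellite cells. Of 20 tested, 6 rose and 0 fell against PDGFRa+ cells, beside 3.20% and 4.09% of all tested genes. Against CD31+ or CD45+ cells 5 rose and 1 fell, beside 5.12% and 6.57%. Myod1 rose by log2 3.11 and 3.21, Myog by 2.68 and 2.42 and Des, the intermediate filament gene of muscle, by 4.22 and 3.05, against PDGFRa+ and CD31+ or CD45+ cells in that order. Myf6 rose by 1.08 and 1.03. Outside the muscle genes, Atf3 rose against PDGFRa+ cells (1.41) and Egr1 against CD31+ or CD45+ cells (2.34). Fos (0.83 and 0.73) and Jun (0.68 and 0.49) were higher in satellite cells but below 2-fold. The gene that fell was Mef2c, against CD31+ or CD45+ cells (-2.49). Myod1 and Des are also among the satellite cell markers used above. The cell division and replication genes Ccna2, Cdk1, Mki67, Top2a, Pcna, Mcm2 and Mcm5 were called in neither comparison, nor were Met and Mymk. Cdk1 (log2 0.87 and 0.64), Mymk (0.69 and 0.71) and Met (0.42 and 0.44) passed the adjusted threshold in both but stayed below 2-fold. Ccna2, Top2a and Mcm5 did so against PDGFRa+ cells alone. The offset shrinks the differences of dim genes. Met read 14.2 on the aged and 14 on the young satellite cell array, and 1 to 2.2 elsewhere. Mymk read 32.2 on the aged and 23.9 on the young one, and 3.3 to 5.3 elsewhere. Ccnd1 rose against PDGFRa+ cells by 1.06 and was not called against CD31+ or CD45+ cells. In the age pair 14 of the 20 were higher in aged satellite cells, with a median of 0.21, where 55.9% of all genes were lower with a median of -0.02.

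The genes nearest to each of the 9 in pattern were sought as those with the smallest root mean square difference of gene-centred log2 values over 6 arrays, among 18371 others. For Cdh15 they were Pax7 (0.184), Vgll2 (0.216) and Megf10 (0.249). Megf10 and Tenm4 were each other's nearest gene (0.168), followed for both by Cdh15 and Hs6st2, so these 4 genes had patterns closer to each other than to the rest of the set. The nearest to Hs6st2 was Fitm1 (0.154), followed by Actn3 (0.256) and Megf10 (0.264).

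Calcr and Itga7 lay near each other too on this scale (0.234), and both had genes at lower distance elsewhere. In the authors' value table they were less alike, with log2 differences over PDGFRa+ cells of 4.84 for Calcr and 2.73 for Itga7. Tac4 was nearest to Calcr (0.093), reading 76.6 on the aged and 238.9 on the young satellite cell array, followed by Popdc2 (0.118) and Dclk3 (0.150). For Itga7 the nearest were Pgap4 (0.114), Sgca (0.125) and Iqgap2 (0.126), and for Cxcr4 Tmem51 (0.058), Rhbdf2 (0.193) and Crybg1 (0.253). Vcam1 had Ank3 (0.328), Chrnb1 (0.329) and Mapt (0.339). Chodl had its nearest genes farther off, with Dtx4 at 0.706, Megf10 at 0.738 and Ccl19 at 0.743.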

How the data were processed

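RNA of freshly sorted cells was amplified, labelled with Cy5 and hybridised to 6 one-colour Toray arrays, per the labels' protocols. The deposited intensity values, per the file headers, are spot medians merged from 3 scanner gains. The deposited value table was matched by spot medians minus the trimmed mean of blank spots, scaled by array, with the median of each column at 25, and is the intensity given per array. The genome build is not given in the sources used here.

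From the spots, intensities were corrected by normexp (limma 3.58.1, R 4.3.3) against the 5% trimmed mean of 2736 blank spots with an offset of 50, taken to log2 and quantile normalised. A gene was read from its brightest probe. Of 23473 probes, 2783 had no symbol. Genes above background on at least 2 arrays were fitted by limma with cell type and age, which left 2 residual degrees of freedom, and p-values were adjusted by Benjamini-Hochberg over 18372 genes. Each cell type had 1 array an age, so the p-values set each difference against a spread taken from departures from a shared age effect. Variation between pools of the same population and age was not measured. The script was run on simulated data with added satellite cell changes, independent noise and no age effect. That run cannot show how well the p-values hold for these arrays. All 9 genes, 3 nearest genes of each, called partners and partners named by role are named. Members and lists were chosen with earlier results of these data known. A planned description of protein features was not run.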

Additional observations from a re-analysis of the deposited data

Results flagged for a closer look

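Itga7 moved in opposite directions with age in different populations, at log2 -0.37 in satellite cells and 0.299 in CD31+ or CD45+ cells (aged minus young, 1 array a side). Vcam1 did so between PDGFRa+ cells, at -0.352, and CD31+ or CD45+ cells, at 0.442. Each side was at least 1.2-fold, and the difference between populations was not tested. With the local background of each spot Itga7 was higher in both, at 0.477 in satellite and 0.019 in CD31+ or CD45+ cells. The directions were then no longer opposite, and the satellite cell pair spans both gain slope groups. Probes outside the comparisons also gave signal. The second Megf10 probe read 60.3 in aged and 74.1 in young satellite cells, and the second Cxcr4 probe 143.7 in aged and 210.9 in young satellite cells.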

How the results depend on the processing

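No paired analysis was possible because each population and age had 1 array and the labels give no replicate numbers. With the local background of each spot, 1 of the 9 genes (Tenm4) was called higher in satellite cells against either population and against both, with 34 genes higher and 34 lower against PDGFRa+ cells, 116 and 226 against CD31+ or CD45+ cells, 22 higher than both, and 112 and 177 for PDGFRa+ over CD31+ or CD45+ cells. With an offset of 10 these counts were 977 and 1236, 1565 and 1817, 635, and 1422 and 1523. With the authors' value table they were 1451 and 1530, 2216 and 2213, 897, and 1849 and 1941. Chodl was not called for PDGFRa+ over CD31+ or CD45+ cells (0 of 9 higher) with the local background, without the age term or with the scanner setting as a block, where 451 genes were higher and 384 lower. Scaling to the 75th percentile called 1 of the 9 and 443 genes by the age term, in a fit that gave all genes 1 shared spread. Leaving out 1 array at a time gave 0 to 9 of the 9 genes against PDGFRa+ cells, 0 to 574 genes higher and 0 to 738 lower. It gave 0 to 8 and 0 to 412 against both, and 0 to 1 of the 9, 523 to 847 higher and 608 to 968 lower for PDGFRa+ over CD31+ or CD45+ cells. The cause of these shifts was not tested. No direction of a called value was reversed in the settings run.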
